A study of Mus musculus with 18 samples.

Results

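E0771 is a mouse mammary carcinoma line used as a model of triple-negative breast cancer. The cells studied here carried a luciferase construct and 1 of 3 retroviral hairpins. The control hairpin targeted Renilla luciferase (cntrl), and shCdk8-1 (CDK8.1593) and shCdk8-2 (CDK8.1830) targeted Cdk8. Treatment was DMSO or 1 µM Senexin B (SnxB) for 48 h in every line. The question addressed is what the 2 perturbations did together, so the libraries described are shCdk8-1 SnxB (3), shCdk8-2 SnxB (3) and untreated cntrl DMSO (3), 9 of the 18 in the series. Membership follows from the labels alone. The other 9 libraries (both hairpins in DMSO, and cntrl in SnxB) enter only where the combined state is set beside one of its parts.

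Each hairpin was represented by 1 transduced population sorted on mCherry, so differences between the lines that arose apart from Cdk8 cannot be told apart from the knockdown. Both comparisons with cntrl DMSO use the same 3 control libraries, so they are not independent of each other. The sources used here do not say whether replicates were separate cultures, and p-values then measure only the spread between these libraries, which may be technical. Totals of the 9 libraries ran from 16452260 to 20828547 reads counted in genes, no library stood apart in depth, and no 2 libraries held identical counts. At this depth 3 counts, the floor used for a gene at 0, correspond to 0.147 to 0.185 CPM, the counts-per-million scale used throughout.

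CDK8 and its paralogue CDK19 are alternative kinases of the Mediator kinase module, in which cyclin C activates the kinase and MED12 and MED13 hold it to Mediator, the bridge between transcription factors and RNA polymerase II. Senexin B inhibits the kinase activity of both paralogues and leaves the proteins in place, whereas a hairpin lowers the amount of the transcript it targets. CDK8 is known in tumour cells for its links to interferon signalling, to Wnt target genes and to the immediate early response.

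Cdk8 itself (ENSMUSG00000029635.15, GRCm38 chromosome 5 from 146231230 to 146302874) was 58.6, 54.8 and 55.1 CPM in cntrl DMSO, 24.8, 20.2 and 24.4 CPM in shCdk8-1 SnxB and 36.6, 41.6 and 40.3 CPM in shCdk8-2 SnxB. The 3 groups did not overlap, and the level was lowest with shCdk8-1. The log2 fold change against cntrl DMSO was -1.28 ± 0.0747 with shCdk8-1 and -0.51 ± 0.0705 with shCdk8-2 (adjusted p = 8.43e-12 and 3.37e-06), that is 2.42-fold and 1.42-fold lower. The hairpins also differed from each other, with a log2 difference of 0.77 ± 0.0769 (adjusted p = 4.59e-07) for shCdk8-2 minus shCdk8-1, the direction in which all hairpin differences are given. The SnxB step in a knockdown line left Cdk8 at log2 0.11 ± 0.0814 (adjusted p = 0.579) and 0.02 ± 0.0719 (adjusted p = 0.957) against the same line in DMSO. In bulk RNA, fewer cells with a transcript and less transcript per cell cannot be told apart, here or in any result below.

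Cdk19, the paralogue that neither hairpin targets, was 94.0, 93.6 and 93.5 CPM in cntrl DMSO, 139, 125 and 133 CPM in shCdk8-1 SnxB and 120.0, 114 and 111 CPM in shCdk8-2 SnxB. Every knockdown library in SnxB lay above every control library, and Cdk19 rose by log2 0.50 ± 0.0427 with shCdk8-1 and 0.30 ± 0.0429 with shCdk8-2 (adjusted p = 3.33e-09 and 5.77e-06). Of the other members of the kinase module, Med13 fell slightly (log2 fold changes -0.34 and -0.24, adjusted p = 0.00319 and 0.026). Ccnc, Med12 and Med13l did not pass the test with either hairpin (adjusted p of at least 0.145), and Med12l was below the filter on low counts. Thus 1 of the 6 tested members rose and 2 fell with each hairpin, with median log2 fold changes of -0.11 and -0.02.

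**Figure D1:**
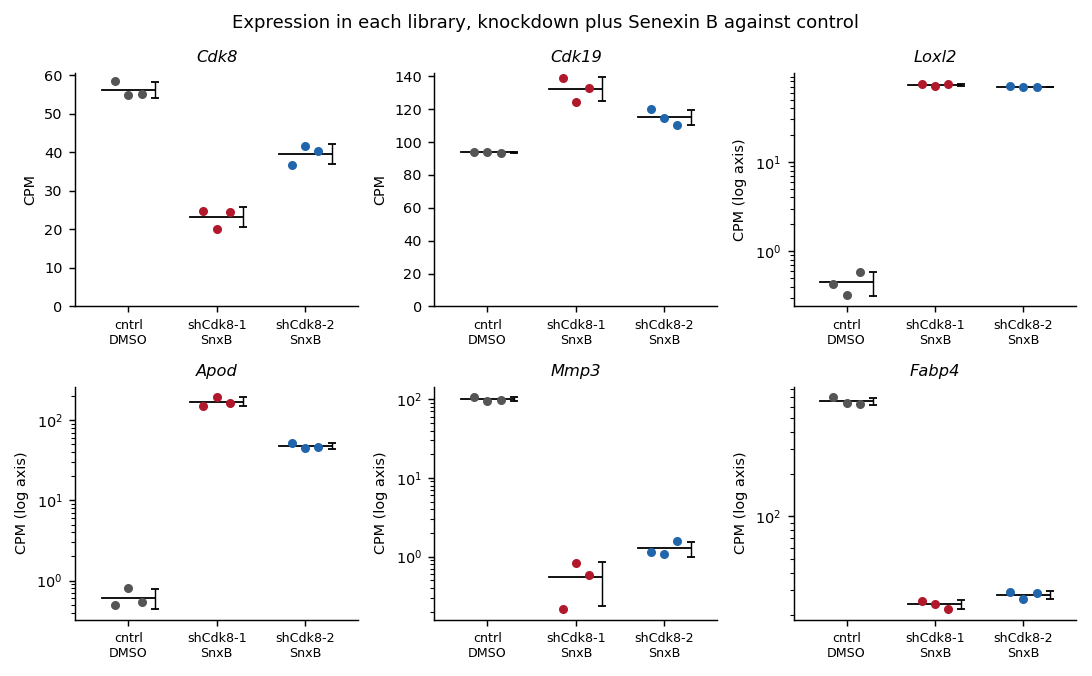
CPM (vertical axis) in each of the 9 libraries for 6 genes; points are libraries, horizontal lines group means and bars the SD (n = 3), with linear axes from 0 for Cdk8 and Cdk19 and log axes for the others. Cdk8 fell further with shCdk8-1 than with shCdk8-2, Loxl2 and Apod rose, and Mmp3 and Fabp4 fell, with no overlap between control and knockdown libraries. For Loxl2, Apod, Mmp3 and Fabp4 the lack of overlap was a condition of their choice.

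Across the transcriptome, 12772 genes passed the filter and were tested. A gene was called when its adjusted p (edgeR quasi-likelihood test, Benjamini-Hochberg over all tested genes) was under 0.05 and its fold change exceeded 2. With shCdk8-1 SnxB, 728 genes (5.7%) were called higher and 956 (7.49%) lower. With shCdk8-2 SnxB the corresponding numbers were 650 (5.09%) and 801 (6.27%). Many changes were large: 333 genes exceeded 4-fold upwards and 408 downwards with shCdk8-1, and 322 and 305 did so with shCdk8-2. Without the fold threshold, 3945 genes (30.9%) were higher and 3819 (29.9%) lower with shCdk8-1, against 3741 (29.3%) and 3719 (29.1%) with shCdk8-2. These shares are the background for the groups of genes below, in which rose and fell mean an adjusted p under 0.05. The median log2 fold change over all tested genes was 0.01 in each comparison.

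**Figure D2:**
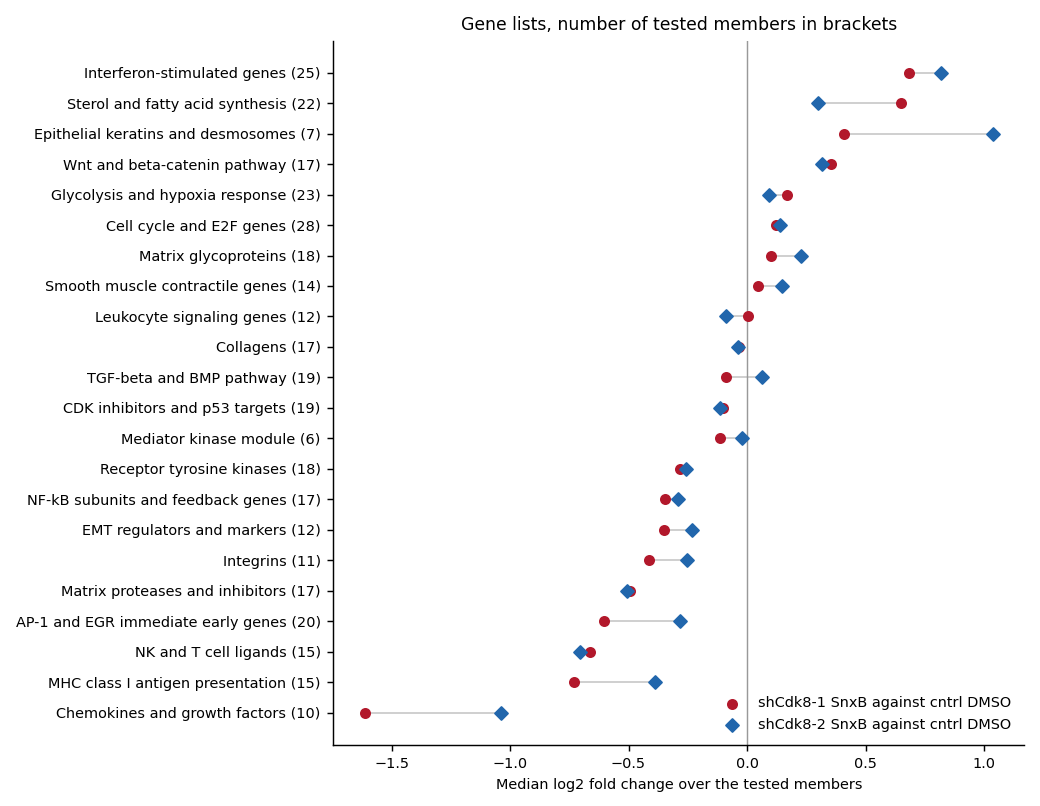
Median log2 fold change against cntrl DMSO (horizontal axis) over the tested members of each gene group, for shCdk8-1 SnxB (circles) and shCdk8-2 SnxB (diamonds); the number of tested members is in brackets and the vertical line marks 0. Chemokines and growth factors had the lowest medians (-1.61 and -1.04), and interferon-stimulated genes lay at 0.68 and 0.82.

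Rises and falls shared by both hairpins were ranked among protein-coding genes with a mean of 5 CPM or more over the 9 libraries. The ranking also required no overlap between cntrl DMSO and the knockdown libraries in SnxB. That separation is therefore not a result about the ranked genes. The genes with the largest rise in this ranking were nearly silent in control cells. A ranking by fold change favours genes low in controls, so this too is not a result about them. Nr5a1, an orphan nuclear receptor of steroidogenic tissue, was at 0 in all 3 cntrl DMSO libraries and at 7.91, 7.13 and 7.41 CPM in shCdk8-1 SnxB and 13.5, 13.1 and 11.6 CPM in shCdk8-2 SnxB. This is at least 45.4-fold and at least 77.2-fold higher, with the floor of 3 counts per library. Syk, a tyrosine kinase of immune receptor signalling, gave 2 counts over the 3 control libraries. It reached 11.9, 10.7 and 10.6 CPM and 7.34, 6.66 and 5.91 CPM in the knockdown libraries, a ratio of 306 (95% counting interval 84.3 to 2531) and 184 (95% counting interval 50.6 to 1525). Krt8, a keratin of simple epithelia, reached 6.51, 6.9 and 7.83 CPM and 11.3, 11.6 and 11.2 CPM from 3 control counts, a ratio of 130.2 (95% counting interval 44.2 to 634) and 209 (95% counting interval 71.1 to 1015). Intervals of this kind cover counting error only. Psen2, a catalytic subunit of gamma-secretase, Galc, the lysosomal galactosylceramidase, and Slc35g2, a solute carrier family member, were at 0 to 3 counts in every control library. Their means were 9.4 and 8.01 CPM, 9.95 and 8.57 CPM, and 8.88 and 8.95 CPM in the 2 knockdown groups. Gm13212 and Pramef12, which belong to families of similar copies so that reads may be split among them, showed the same pattern, with means of 14.6 and 14.2 CPM for Pramef12.

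Loxl2, a lysyl oxidase that cross-links collagen, was 0.431, 0.325 and 0.588 CPM in cntrl DMSO, 74.3, 70.3 and 74.0 CPM in shCdk8-1 SnxB and 70.1, 69.0 and 68.9 CPM in shCdk8-2 SnxB. All 6 knockdown libraries lay above the controls, as the ranking required. The difference between the hairpin groups, log2 -0.07 ± 0.0442, did not pass the test (adjusted p = 0.284). The log2 fold change was 7.31 ± 0.0952 with shCdk8-1 and 7.24 ± 0.0957 with shCdk8-2 (adjusted p = 8.01e-22 and 1.80e-21). Apod, a lipid-binding secreted lipocalin, was 0.493, 0.813 and 0.539 CPM in cntrl DMSO, 151, 194 and 166 CPM in shCdk8-1 SnxB and 52.7, 45.1 and 46.0 CPM in shCdk8-2 SnxB, again without overlap. Its log2 fold change was 8.09 ± 0.186 with shCdk8-1 and 6.27 ± 0.213 with shCdk8-2, and the rise was larger with shCdk8-1, as given with the hairpin differences.

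Among the largest falls, the stromelysin Mmp3 went from 106, 95.7 and 96.7 CPM in cntrl DMSO to 0.215, 0.832 and 0.582 CPM with shCdk8-1 and 1.13, 1.08 and 1.59 CPM with shCdk8-2. No library of the knockdown groups came near the controls, and the log2 fold change was -7.52 ± 0.184 with shCdk8-1 and -6.30 ± 0.16 with shCdk8-2 (adjusted p = 9.75e-18 and 4.38e-17). Fabp4, a fatty acid carrier best known from adipocytes and macrophages, was 701, 638 and 626 CPM in cntrl DMSO, 25.3, 24.0 and 22.1 CPM in shCdk8-1 SnxB and 29.1, 25.96 and 28.5 CPM in shCdk8-2 SnxB. Its log2 fold change was -4.78 ± 0.0617 with shCdk8-1 and -4.55 ± 0.0606 with shCdk8-2 (adjusted p = 8.01e-22 and 1.80e-21). Esr1, the oestrogen receptor, fell from 23.7, 21.5 and 24.1 CPM to 0.476 to 1.18 CPM and 0.911 to 1.18 CPM (log2 fold changes -4.86 and -4.46). Prickle2, of planar cell polarity, and Csgalnact1, which starts chondroitin sulphate chains, fell with log2 fold changes of -7.62 and -5.80 for Prickle2 and -4.88 and -6.05 for Csgalnact1. Hcls1, Elmo1, Dock10, Samsn1 and Fmn1 were also among the 10 largest falls of genes with a mean of 5 CPM or more. Genes below that mean with large falls, such as Dkk2, are given with their groups. Hcls1 had 4 counts in all with shCdk8-1, so that cntrl DMSO was 437 (95% counting interval 170.4 to 1606) times as high, and its log2 fold change with shCdk8-2 was -5.02 ± 0.134. For Elmo1, Dock10, Samsn1 and Fmn1 the log2 fold changes ran from -6.98 to -4.58 with shCdk8-1 and from -4.38 to -4.23 with shCdk8-2.

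Genes of antigen presentation by MHC class I mostly fell. Of the 15 tested members, 1 rose and 12 fell with shCdk8-1, 2 rose and 11 fell with shCdk8-2, and the median log2 fold changes were -0.73 and -0.39. The fall passed 2-fold for 5 members with shCdk8-1 and 5 with shCdk8-2. Nlrc5, the transactivator of MHC class I genes, was 79.2, 76.2 and 73.8 CPM in cntrl DMSO, 20.4, 14.0 and 17.3 CPM in shCdk8-1 SnxB and 20.8, 23.3 and 19.6 CPM in shCdk8-2 SnxB. All 6 knockdown libraries lay below the controls, while the hairpin groups overlapped, and the log2 fold change was -2.14 ± 0.0843 with shCdk8-1 and -1.85 ± 0.082 with shCdk8-2 (adjusted p = 1.57e-14 and 1.53e-13). The classical heavy chain H2-K1 was 108, 106 and 109 CPM in cntrl DMSO, 61.9, 58.3 and 60.04 CPM in shCdk8-1 SnxB and 37.6, 33.1 and 38.8 CPM in shCdk8-2 SnxB. All 3 groups were separate, and here the lower level was with shCdk8-2. H2-K1 fell, with log2 fold changes of -0.84 ± 0.0507 for shCdk8-1 and -1.56 ± 0.0531 for shCdk8-2 (adjusted p = 1.31e-11 and 2.42e-15), and the hairpins differed by log2 -0.72 ± 0.0547 (adjusted p = 1.28e-08). H2-D1, the other classical heavy chain, was 599, 594 and 616 CPM in cntrl DMSO, 252, 265 and 252 CPM in shCdk8-1 SnxB and 289.8, 306 and 300.1 CPM in shCdk8-2 SnxB. It fell, with log2 fold changes of -1.24 ± 0.032 with shCdk8-1 and -1.01 ± 0.0318 with shCdk8-2 (adjusted p = 2.15e-17 and 7.57e-16) and differed between the hairpins by log2 0.22 ± 0.0319 (adjusted p = 3.56e-05), in the opposite sense. Since heavy chain genes resemble each other, reads matching several of them may be missing from the counts. B2m, the invariant light chain, fell from a mean of 643 CPM to 321 and 359 CPM (log2 -1.003 and -0.84). The immunoproteasome subunit Psmb9 fell (log2 fold changes -2.28 and -1.73), as did Psmb8 (-0.73 and -0.35), the peptide transporter Tap1 (-0.84 and -0.79), and the non-classical heavy chain H2-M3 (-1.47 and -1.11). Tapbp, which tethers the heavy chain to the transporter, rose by log2 0.12 and 0.33.

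**Figure D3:**
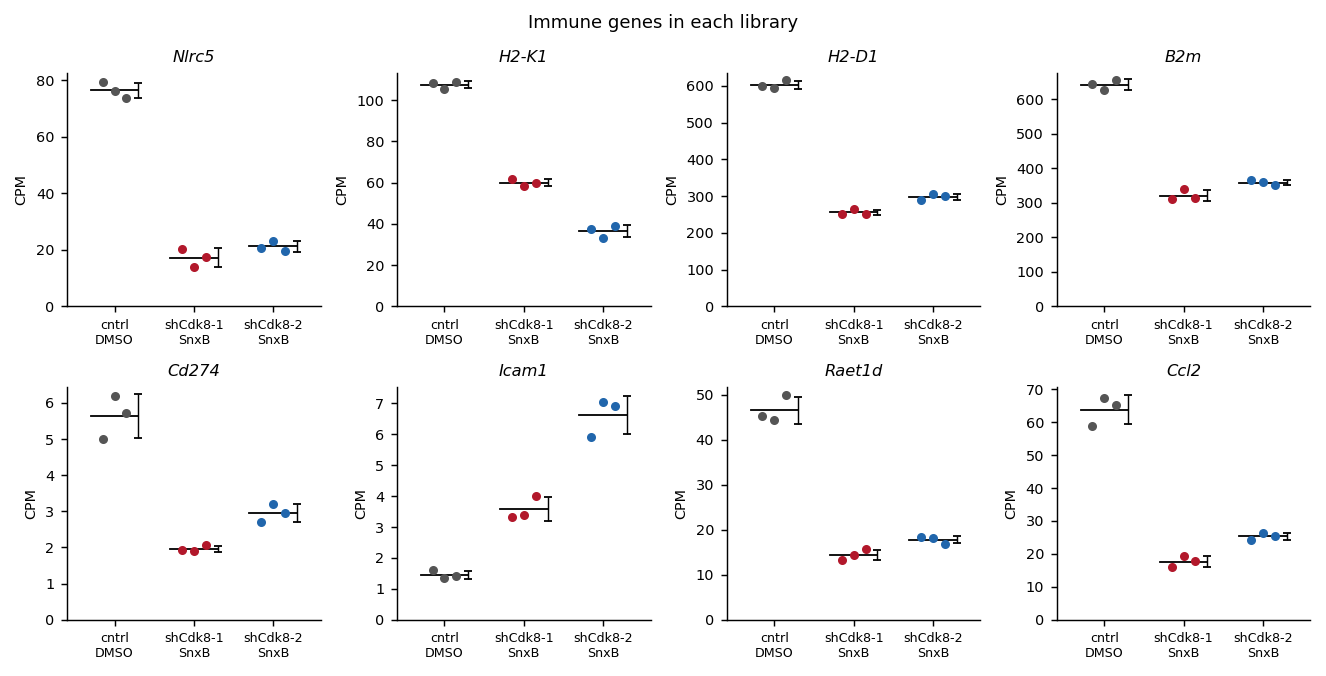
CPM (linear axes from 0) of 8 immune genes in each of the 9 libraries; points are libraries, lines group means and bars the SD (n = 3). Icam1 is the one gene of the 8 that was higher in both knockdown groups, and in each panel the control libraries are separate from the 6 knockdown libraries.

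Interferon-stimulated genes mostly rose. Of the 25 tested members, 17 rose and 3 fell with shCdk8-1, 18 rose and 3 fell with shCdk8-2, and the median log2 fold changes were 0.68 and 0.82. The rise passed 2-fold for 8 members with shCdk8-1 and 10 with shCdk8-2. Ifit1, which binds viral RNA, was 1.6, 1.84 and 1.76 CPM in cntrl DMSO, 4.57, 3.92 and 4.13 CPM in shCdk8-1 SnxB and 4.34, 5.52 and 4.37 CPM in shCdk8-2 SnxB. The knockdown libraries were all higher, by log2 1.27 ± 0.196 with shCdk8-1 and 1.44 ± 0.192 with shCdk8-2 (adjusted p = 1.10e-05 and 1.98e-06). Oasl2, of the oligoadenylate synthetase family, was 1.42, 1.46 and 1.47 CPM in cntrl DMSO, 6.94, 4.34 and 4.87 CPM in shCdk8-1 SnxB and 5.62, 5.46 and 5.73 CPM in shCdk8-2 SnxB and rose by log2 1.89 ± 0.178 with shCdk8-1 and 1.94 ± 0.177 with shCdk8-2. Mx1, a dynamin-like antiviral GTPase, rose by log2 2.74 and 2.68, Usp18, the negative regulator of the interferon receptor, by 1.22 and 1.47, Irf7 by 1.33 and 1.19, and the RNA sensor Ifih1 by 1.28 and 1.15. The RNA sensor Ddx58 fell (log2 fold changes -0.40 and -0.28), as did Oas1a (-0.82 and -0.65). Stat2 and Irf1 did not pass the test with either hairpin, with log2 fold changes of 0.12 and -0.15 and -0.15 and -0.08.

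The 250 bases before the transcription start of 2 of the genes that rose, Ifit1 and Rsad2, are shown because they hold the core of the interferon-stimulated response element. Sequences are from RefSeq on GRCm38.p6 and are written 5′ to 3′ on the gene's strand. Capitals mark the core, GAAA on either side of any 2 bases, searched on both strands, so that it can appear as its reverse complement.
Ifit1, chr19:34640639-34640888, plus strand: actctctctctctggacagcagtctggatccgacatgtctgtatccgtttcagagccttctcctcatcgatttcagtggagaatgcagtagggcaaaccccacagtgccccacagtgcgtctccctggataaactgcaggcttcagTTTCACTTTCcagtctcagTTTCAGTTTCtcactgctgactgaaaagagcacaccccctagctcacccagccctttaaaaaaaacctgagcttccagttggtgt
Rsad2, chr12:26456453-26456702, minus strand: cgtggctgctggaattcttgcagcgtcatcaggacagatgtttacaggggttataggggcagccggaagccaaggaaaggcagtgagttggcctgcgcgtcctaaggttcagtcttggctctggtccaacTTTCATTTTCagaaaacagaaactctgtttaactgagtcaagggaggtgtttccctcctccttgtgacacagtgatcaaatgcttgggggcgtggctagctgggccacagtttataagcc
The core was found in this window for 9 of the 20 group members with a promoter entry (45.0%) and for 978 of all 32851 promoters (2.98%). This group was drawn up with earlier results of these data known, so the share is no independent test. The members with a match were Bst2, Gbp2, Gbp3, Ifit1, Ifit3, Isg15, Oas1a, Rsad2 and Stat2. They include both genes that rose and genes that did not: Rsad2 rose by log2 0.68 and 0.91 and Bst2 by 0.25 and 0.24, whereas Oas1a fell.

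Ligands read by NK and T cells mostly fell. Of the 15 tested members, 3 rose and 10 fell with shCdk8-1, 4 rose and 10 fell with shCdk8-2, and the median log2 fold changes were -0.66 and -0.71. Raet1d, a ligand of the activating NK receptor NKG2D, was 45.2, 44.5 and 50.0 CPM in cntrl DMSO, 13.3, 14.4 and 15.6 CPM in shCdk8-1 SnxB and 18.4, 18.1 and 16.8 CPM in shCdk8-2 SnxB. The groups did not overlap and the log2 fold change was -1.69 ± 0.0679 with shCdk8-1 and -1.39 ± 0.066 with shCdk8-2 (adjusted p = 2.11e-14 and 4.60e-13). The related Raet1e fell (log2 fold changes -1.66 and -1.26), as did Ulbp1 (-0.66 and -0.76), with the same reservation on similar copies as for the heavy chains. Cd274, which encodes the checkpoint ligand PD-L1, was 4.99, 6.18 and 5.73 CPM in cntrl DMSO, 1.94, 1.9 and 2.06 CPM in shCdk8-1 SnxB and 2.71, 3.19 and 2.95 CPM in shCdk8-2 SnxB. It fell, with log2 fold changes of -1.52 ± 0.153 with shCdk8-1 and -0.94 ± 0.141 with shCdk8-2 (adjusted p = 3.61e-08 and 9.16e-06). Clec2d, a ligand of an inhibitory NK receptor, fell (log2 fold changes -1.12 and -0.86), as did the adhesion ligand Nectin2 (-1.10 and -0.83) and Pvr (-0.51 and -0.56). Icam1 and Tnfsf10 rose past 2-fold. Icam1, which binds the integrin LFA-1 on lymphocytes, was 1.6, 1.35 and 1.42 CPM in cntrl DMSO, 3.33, 3.39 and 4.02 CPM in shCdk8-1 SnxB and 5.91, 7.06 and 6.91 CPM in shCdk8-2 SnxB, all 6 above the controls. Its log2 fold change was 1.30 ± 0.18 with shCdk8-1 and 2.18 ± 0.161 with shCdk8-2 (adjusted p = 2.92e-06 and 4.45e-10). Icam2, in contrast, fell: its 86 control counts stood against 1 with shCdk8-1, and the log2 fold change with shCdk8-2 was -3.04 ± 0.381 (adjusted p = 8.62e-07). Tnfsf10, the death ligand TRAIL, is described with the SnxB step.

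Secreted factors that recruit or feed leukocytes were mostly lower. Of the 10 tested members, 0 rose and 8 fell with shCdk8-1, 1 rose and 7 fell with shCdk8-2, and the median log2 fold changes were -1.61 and -1.04. Ccl2, the monocyte chemoattractant, was 58.9, 67.3 and 65.3 CPM in cntrl DMSO, 15.97, 19.2 and 17.8 CPM in shCdk8-1 SnxB and 24.3, 26.4 and 25.3 CPM in shCdk8-2 SnxB. The knockdown libraries were all below the controls, with log2 fold changes of -1.86 ± 0.0797 with shCdk8-1 and -1.34 ± 0.076 with shCdk8-2 (adjusted p = 6.11e-14 and 7.58e-12). Its neighbour in the family Ccl7 fell (log2 fold changes -1.37 and -0.77), as did Ccl8, at a mean of 0.988 CPM in controls (-2.37 and -2.38). The membrane-bound chemokine Cx3cl1 fell (log2 fold changes -1.86 and -1.31), as did the macrophage growth factor Csf1 (-1.06 and -0.71), the alarmin Il33 (-2.46 and -1.80) and the cytokine Lif (-2.71 and -2.11). Ccl5 did not pass the test with either hairpin (-0.12 and 0.14). Of the group's 23 members, 10 were tested, and the others did not pass the filter on low counts.

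Genes that signal inside leukocytes changed in both directions. Of the 12 tested members, 5 rose and 5 fell with shCdk8-1, 5 rose and 5 fell with shCdk8-2, and the median log2 fold changes were 0.00 and -0.09. Besides Syk, the phospholipase Plcg2 rose from a mean of 0.955 CPM to 6.25 and 4.03 CPM (log2 2.72 and 2.10). Cd244a, an NK-cell receptor of the SLAM family, rose by log2 1.35 and 1.49. The exchange factor Vav1 had 429 counts in controls and 2 with shCdk8-1, and fell, with a log2 fold change of -5.67 ± 0.251 (adjusted p = 1.46e-13) with shCdk8-2. The integrin chain Itgb2 was 36.0, 29.6 and 32.0 CPM in cntrl DMSO, 3.17, 4.4 and 3.81 CPM in shCdk8-1 SnxB and 7.2, 5.52 and 5.91 CPM in shCdk8-2 SnxB and fell, with log2 fold changes of -3.10 ± 0.123 with shCdk8-1 and -2.38 ± 0.113 with shCdk8-2. Leukocyte identity markers were close to absent: of 8 (among them Ptprc), 5 were at 3 counts or fewer in all 9 libraries, 2 of these at 0, and their summed level was 2.98 to 3.63 CPM in cntrl DMSO, 1.02 to 1.59 CPM with shCdk8-1 and 1.54 to 2.11 CPM with shCdk8-2. Their part in the changes of this group was not tested.

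Regulators and markers of the epithelial-mesenchymal transition were mostly lower. The group pools epithelial and mesenchymal genes, so its counts and medians give no direction along the transition. Of the 12 tested members, 2 rose and 10 fell with shCdk8-1, 2 rose and 7 fell with shCdk8-2, and the median log2 fold changes were -0.35 and -0.23. Snai2, a repressor of epithelial genes, was 1.6, 1.63 and 1.86 CPM in cntrl DMSO, 0.161, 0.0595 and 0.0529 CPM in shCdk8-1 SnxB and 0.345, 0.512 and 0.0591 CPM in shCdk8-2 SnxB. With 5 counts in all with shCdk8-1, the ratio of cntrl DMSO to shCdk8-1 SnxB was 18.5 (95% counting interval 7.67 to 58.4), and with shCdk8-2 the log2 fold change was -2.43 ± 0.38 (adjusted p = 1.47e-05). Zeb1 fell (log2 fold changes -0.54 and -0.40), as did Zeb2 (-0.29 and -0.45), Prrx1 (-0.27 and -0.24) and vimentin (-0.26 and -0.23). Snai1 rose by log2 0.53 and 0.37. The epithelial cadherin Cdh1 rose by log2 2.49 and 2.05 but only to a mean of 0.853 and 0.628 CPM, and the tight-junction gene Ocln fell (-1.27 and -0.91). Grhl2 fell with shCdk8-1 (log2 -2.09, adjusted p = 0.021) and did not pass the test with shCdk8-2 (-0.92, adjusted p = 0.214).

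Few keratin and desmosome genes were expressed, and those that changed rose. Of the 21 members, 7 were tested: 4 rose and 0 fell with shCdk8-1, 5 rose and 0 fell with shCdk8-2, and the medians were 0.41 and 1.04. Jup, plakoglobin of desmosomes and adherens junctions, was 7.58, 8.35 and 7.64 CPM in cntrl DMSO, 73.7, 67.5 and 67.6 CPM in shCdk8-1 SnxB and 60.02, 50.3 and 55.0 CPM in shCdk8-2 SnxB. The gap between groups was wide, with log2 3.15 ± 0.0984 with shCdk8-1 and 2.81 ± 0.0999 with shCdk8-2 (adjusted p = 3.83e-16 and 4.83e-15). Pkp2, a desmosomal plaque protein, rose by log2 0.41 and 1.04, and differed between the hairpins by 0.63 ± 0.0658 (adjusted p = 8.27e-07). Pkp1 gave 73 against 2 counts with shCdk8-1 and 23 against 2 with shCdk8-2 against cntrl DMSO. The labelled identity as a mammary tumour line was checked against marker genes: of 7 markers of mammary epithelium, 4 stayed at 3 counts or fewer in all 9 libraries. Their summed level, 0.163 to 0.441 CPM in controls, was 7.47 to 8.68 CPM and 12 to 12.8 CPM in the knockdown groups, nearly all of it Krt8. Epithelial markers were thus close to absent in the controls. Of 7 fibroblast markers, 1 stayed at 3 counts or fewer and none was at 0 in all 9 libraries. They summed to 2505 to 2579 CPM in controls, 1858 to 1988 CPM with shCdk8-1 and 2357 to 2469 CPM with shCdk8-2, largely Col3a1. The 5 tested were split: with shCdk8-1, 2 rose and 3 fell, and with shCdk8-2, 1 rose and 1 fell. Col1a1 rose with both hairpins, as given with the collagens below, and Dcn rose with shCdk8-1 (log2 1.96), whereas Pdgfrb fell with both (-0.55 and -0.52). Endothelial markers, 5 in number with 1 at 3 counts or fewer and none at 0, summed to 4.95 to 5.61 CPM in controls, 16.3 to 17.9 CPM with shCdk8-1 and 7.33 to 7.69 CPM with shCdk8-2. They were split: Pecam1 rose by log2 5.80 and 4.52 and Cdh5 fell (-4.14 and -2.88). The part of any of these marker lists in the other results was not tested. Of the receptors that a triple-negative tumour lacks or holds low, Pgr was at 0 in all 9 libraries, and Esr1, Pgr and Erbb2 together summed to 78.0 to 79.4 CPM in controls, 47.8 to 55.2 CPM with shCdk8-1 and 47.0 to 50.6 CPM with shCdk8-2.

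Matrix proteases, their inhibitors and the urokinase receptor, taken as 1 group, mostly fell. Of the 17 tested members, which include the inhibitors Timp1 and Timp2, 3 rose and 13 fell with shCdk8-1, 3 rose and 12 fell with shCdk8-2, and the median log2 fold changes were -0.49 and -0.51. After Mmp3, the collagenase Mmp13 had 604 counts in controls and 1 with shCdk8-1, and fell, with a log2 fold change of -6.01 ± 0.229 (adjusted p = 1.38e-14) with shCdk8-2. Mmp10, another stromelysin, fell, with a log2 fold change of -5.63 ± 0.35 (adjusted p = 2.19e-11) with shCdk8-1 and gave 269 against 8 counts against shCdk8-2. The gelatinase Mmp9 was 9.55, 9.76 and 10.6 CPM in cntrl DMSO, 1.45, 1.55 and 0.899 CPM in shCdk8-1 SnxB and 3.75, 5.58 and 3.72 CPM in shCdk8-2 SnxB. The 3 groups were separate and the fall was larger with shCdk8-1, with log2 fold changes of -2.95 ± 0.188 with shCdk8-1 and -1.21 ± 0.148 with shCdk8-2 (adjusted p = 3.26e-11 and 6.79e-07), a difference between hairpins of 1.74 ± 0.218 (adjusted p = 7.73e-06). The gelatinase Mmp2 went the other way, from a mean of 13.1 CPM to 46.1 and 43.8 CPM (log2 1.81 and 1.74). Adam8 fell (log2 fold changes -2.96 and -2.51), as did the urokinase gene Plau (-1.41 and -0.87) and its receptor Plaur (-0.36 and -0.38). The inhibitors Timp1 (-0.40 and -0.30) and Timp2 (-0.36 and -0.30) fell too.

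Structural matrix genes were changed without a common direction. Of 17 collagen genes tested, 8 rose and 7 fell with shCdk8-1 and 7 rose and 7 fell with shCdk8-2, and the medians were -0.03 and -0.04. Col1a1, the main chain of fibrillar collagen I, was 0.924, 0.976 and 0.441 CPM in cntrl DMSO, 21.2, 24.8 and 23.4 CPM in shCdk8-1 SnxB and 17.4, 17.9 and 16.6 CPM in shCdk8-2 SnxB. It rose by log2 4.91 ± 0.183 with shCdk8-1 and 4.49 ± 0.19 with shCdk8-2 (adjusted p = 6.17e-15 and 7.18e-14). Col5a2 and Col12a1 rose as well, by log2 4.62 and 3.89 and 1.54 and 1.75, and Col6a2 by 1.13 and 0.88. The basement membrane chains Col4a1 and Col4a2 fell (log2 fold changes -0.48 and -0.46, and -0.72 and -0.66), as did Col8a1 (-3.57 and -3.86). Among 18 glycoproteins, 9 rose and 6 fell with shCdk8-1 and 10 rose and 4 fell with shCdk8-2. Thbs2, a matricellular thrombospondin, was 1.6, 2.82 and 2.16 CPM in cntrl DMSO, 71.7, 63.0 and 68.2 CPM in shCdk8-1 SnxB and 65.9, 61.6 and 61.8 CPM in shCdk8-2 SnxB. The 6 knockdown libraries were far above the controls, by log2 4.93 ± 0.106 with shCdk8-1 and 4.83 ± 0.107 with shCdk8-2 (adjusted p = 1.46e-18 and 5.97e-18). Tgfbi, a TGF-beta-induced matrix protein, was 17.6, 21.4 and 21.6 CPM in cntrl DMSO, 206, 213 and 219 CPM in shCdk8-1 SnxB and 215, 209 and 207 CPM in shCdk8-2 SnxB and rose by log2 3.39 ± 0.060 with shCdk8-1 and 3.38 ± 0.060 with shCdk8-2. Fbn1, of elastic microfibrils, rose by log2 2.15 and 1.75 and the growth regulator Ccn2 by 1.22 and 1.20. Tenascin-C (Tnc) fell (log2 fold changes -3.02 and -1.53). Osteopontin (Spp1) was at log2 0.19 ± 0.0592 (adjusted p = 0.00999) with shCdk8-1 and -0.86 ± 0.0607 (adjusted p = 2.35e-10) with shCdk8-2, and the hairpins differed by -1.04 ± 0.0607 (adjusted p = 3.00e-10).

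Integrin chains, the receptors for this matrix, tended to fall. Of the 11 tested members, 4 rose and 7 fell with shCdk8-1, 4 rose and 7 fell with shCdk8-2, and the median log2 fold changes were -0.41 and -0.25. Itgb7, a chain of leukocyte integrins, was 80.3, 83.2 and 86.8 CPM in cntrl DMSO, 4.41, 4.16 and 4.66 CPM in shCdk8-1 SnxB and 15.8, 16.5 and 15.5 CPM in shCdk8-2 SnxB. The groups were separate and it fell, with log2 fold changes of -4.24 ± 0.0705 with shCdk8-1 and -2.39 ± 0.0577 with shCdk8-2 (adjusted p = 2.92e-20 and 2.26e-17), a hairpin difference of log2 1.85 ± 0.0831 (adjusted p = 7.97e-12). The laminin receptor chain Itga6 fell (log2 fold changes -1.26 and -0.93), whereas its partner Itgb4 rose by 1.61 and 1.47. The collagen receptor chain Itga1 fell (log2 fold changes -1.14 and -0.91), as did the common chain Itgb1 (-0.42 and -0.47).

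Transcription factors of the immediate early response were lower as a group. Of the 20 tested members, 4 rose and 12 fell with shCdk8-1, 3 rose and 12 fell with shCdk8-2, and the median log2 fold changes were -0.60 and -0.28. Klf2, a factor of quiescent endothelium and lymphocytes, was 58.1, 58.6 and 57.9 CPM in cntrl DMSO, 11.0, 13.7 and 14.6 CPM in shCdk8-1 SnxB and 13.9, 16.7 and 14.2 CPM in shCdk8-2 SnxB. It fell, with log2 fold changes of -2.15 ± 0.113 with shCdk8-1 and -1.96 ± 0.111 with shCdk8-2 (adjusted p = 1.57e-12 and 7.22e-12). The stress-response factor Atf3 fell (log2 fold changes -1.33 and -1.05), as did the AP-1 subunits Jund (-1.01 and -0.90), Jun (-0.78 and -0.83), Fosl2 (-0.85 and -0.73) and Fosl1 (-0.58 and -0.30). Myc rose by log2 0.58 and 0.71 and Ier5 by 0.87 and 0.78. NF-kB subunits and feedback genes mostly fell as well: of 17 tested, 2 rose and 10 fell with shCdk8-1 and 2 rose and 11 fell with shCdk8-2 (medians -0.35 and -0.29). The adaptor Traf1 fell from 21.4, 23.2 and 20.5 CPM to 2.53, 2.26 and 2.33 CPM and 3.2, 3.87 and 3.66 CPM with the 2 hairpins (log2 fold changes -3.19 and -2.60). The inhibitor Nfkbie fell (log2 fold changes -1.72 and -1.38), as did the subunits Nfkb1 (-0.93 and -0.78) and Rela (-0.49 and -0.24).

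Of 17 tested members of the Wnt pathway, 10 rose and 4 fell with shCdk8-1 and 10 rose and 5 fell with shCdk8-2, and the medians were 0.35 and 0.32. Among secreted regulators, the Wnt inhibitor Dkk2 was 5.79, 4.23 and 5.24 CPM in cntrl DMSO and at 0 in all 6 knockdown libraries, at least 30.6-fold and at least 30.8-fold lower. The receptor Fzd2 rose by log2 1.46 and 1.07 and the R-spondin receptor Lgr4 by 0.98 and 0.57. Ctnnb1, beta-catenin, was 590.0, 612 and 618 CPM in cntrl DMSO, 1170, 1238 and 1226 CPM in shCdk8-1 SnxB and 799, 752 and 757 CPM in shCdk8-2 SnxB. It rose by log2 1.00 ± 0.0365 with shCdk8-1 and 0.34 ± 0.0363 with shCdk8-2 (adjusted p = 4.76e-15 and 8.63e-08), a difference between hairpins of -0.65 ± 0.0362 (adjusted p = 1.38e-10). The target and feedback gene Axin2 rose by log2 0.51 and 0.52 and the factor Tcf7 by 0.42 and 1.18. Apc, of the destruction complex, fell (-0.77 and -0.66), as did the cyclin gene Ccnd1 (-0.24 and -0.37). Of 19 tested members of the TGF-beta and BMP pathway, 3 rose and 8 fell with shCdk8-1 and 6 rose and 8 fell with shCdk8-2. The ligand Tgfb3 rose by log2 1.05 and 0.89 and Tgfb1 fell (-0.38 and -0.26), the receptor Tgfbr2 fell (-1.41 and -1.55), as did the latency protein Ltbp1 (-1.19 and -0.64).

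Receptor tyrosine kinases fell more often than they rose. Of the 18 tested members, 3 rose and 14 fell with shCdk8-1, 3 rose and 11 fell with shCdk8-2, and the median log2 fold changes were -0.28 and -0.26. The hepatocyte growth factor receptor Met was 539.5, 537 and 571 CPM in cntrl DMSO, 199.7, 189 and 199.9 CPM in shCdk8-1 SnxB and 272, 243 and 243 CPM in shCdk8-2 SnxB. The groups were separate, and the log2 fold change was -1.49 ± 0.058 with shCdk8-1 and -1.12 ± 0.0573 with shCdk8-2 (adjusted p = 1.38e-14 and 1.44e-12). Egfr was 116, 118 and 118 CPM in cntrl DMSO, 34.8, 30.2 and 32.7 CPM in shCdk8-1 SnxB and 43.9, 42.9 and 40.2 CPM in shCdk8-2 SnxB and fell, with log2 fold changes of -1.85 ± 0.0925 with shCdk8-1 and -1.47 ± 0.0899 with shCdk8-2. Fgfr3 fell (log2 fold changes -1.63 and -1.65), as did Mertk, a receptor for dying cells (-1.25 and -1.11). The collagen receptor Ddr1 rose from a mean of 47.4 CPM to 115 and 116 CPM (log2 1.28 and 1.29), and Igf1r rose by 0.50 and 0.52.

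Proliferation genes shifted little. Of the 28 tested members, 16 rose and 2 fell with shCdk8-1, 14 rose and 2 fell with shCdk8-2, and the median log2 fold changes were 0.12 and 0.14. None passed 2-fold with either hairpin. The largest rise was that of Ccne1, cyclin E1 of the entry into S phase, at 54.0, 54.5 and 57.6 CPM in cntrl DMSO, 98.9, 108 and 107 CPM in shCdk8-1 SnxB and 105, 108 and 101 CPM in shCdk8-2 SnxB, with log2 0.92 ± 0.0446 with shCdk8-1 and 0.92 ± 0.0446 with shCdk8-2. The replication licensing genes Mcm2, Mcm3, Mcm4, Mcm6 and Mcm7 rose by log2 0.21 to 0.30 with shCdk8-1 and 0.17 to 0.46 with shCdk8-2. Foxm1, a mitotic transcription factor, fell (-0.21 and -0.24). Among CDK inhibitors and p53 targets, 4 rose and 9 fell with shCdk8-1 and 3 rose and 9 fell with shCdk8-2 of 19 tested. Pmaip1, the pro-apoptotic protein NOXA, was 13.4, 11.8 and 12.2 CPM in cntrl DMSO, 0 in all 3 shCdk8-1 SnxB libraries and 1.33, 2.16 and 1.36 CPM in shCdk8-2 SnxB. It was at least 75.0-fold lower with shCdk8-1, and fell with a log2 fold change of -2.95 ± 0.149 (adjusted p = 8.26e-12) with shCdk8-2. The CDK inhibitor Cdkn1a was at log2 0.59 ± 0.0492 (adjusted p = 2.40e-09) with shCdk8-1 and -0.05 ± 0.0509 (adjusted p = 0.376) with shCdk8-2, and the hairpins differed by -0.64 ± 0.0494 (adjusted p = 1.53e-08).

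Genes of sterol and fatty acid synthesis mostly rose. Of the 22 tested members, 18 rose and 1 fell with shCdk8-1, 14 rose and 4 fell with shCdk8-2, and the median log2 fold changes were 0.65 and 0.30. Lss, the lanosterol synthase, was 65.9, 65.9 and 63.4 CPM in cntrl DMSO, 176, 162 and 168 CPM in shCdk8-1 SnxB and 110.1, 111 and 108 CPM in shCdk8-2 SnxB. All 3 groups were separate, and the log2 fold change was 1.38 ± 0.0387 with shCdk8-1 and 0.75 ± 0.0391 with shCdk8-2 (adjusted p = 7.41e-17 and 1.79e-12). The mevalonate and cholesterol enzymes Hmgcs1, Cyp51 and Fdft1 rose by log2 1.06 and 0.79, 1.11 and 0.68 and 1.11 and 0.82, and the desaturase Scd1 by 0.74 and 0.37. The difference between hairpins was -0.62 ± 0.0373 (adjusted p = 4.57e-10) for Lss. Of 23 glycolysis and hypoxia genes tested, 12 rose and 2 fell with shCdk8-1 and 11 rose and 5 fell with shCdk8-2, none past 2-fold. The phosphofructokinase Pfkp rose by log2 0.77 and 0.73 and lactate dehydrogenase Ldha by 0.45 and 0.30, while the hexokinase Hk1 fell (-0.45 and -0.53).

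Under SnxB the 2 knockdown lines differed from each other in 268 genes, of which 162 (1.27%) were higher and 106 (0.83%) lower in shCdk8-2 SnxB. The genes named below were ranked among protein-coding genes with a mean of 5 CPM or more and no overlap between the 2 lines. That mean was taken over the 9 libraries, so a gene low in both lines entered only if high in cntrl DMSO. The 6 genes with the largest excess in shCdk8-2 in this ranking lay below cntrl DMSO in both lines, and lowest in shCdk8-1. Since the ranking favoured such genes, this order is not a result about them. Psd4, an exchange factor for ARF6, was 44.4, 43.7 and 43.9 CPM in cntrl DMSO, 0.161, 0.119 and 0.212 CPM in shCdk8-1 SnxB and 6.55, 5.52 and 5.55 CPM in shCdk8-2 SnxB. Its control, shCdk8-2 and shCdk8-1 libraries were well apart, and the difference of shCdk8-2 over shCdk8-1 was log2 5.10 ± 0.244 (adjusted p = 1.83e-11). For Gimap6, a GTPase of lymphocytes, shCdk8-2 SnxB gave 83 against 3 counts in shCdk8-1 SnxB, a ratio of 27.4 (95% counting interval 9.07 to 136). Sele, the endothelial adhesion molecule E-selectin, differed by log2 3.99 ± 0.291 (adjusted p = 6.91e-09), Flrt3, a guidance receptor, by 3.81 ± 0.323 (adjusted p = 4.95e-08) and Fam167b by 3.39 ± 0.237 (adjusted p = 3.97e-09). For Hcls1 the ratio was 13.4 (95% counting interval 4.94 to 50.9).

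In the other direction, Ppargc1a, the coactivator of mitochondrial biogenesis, was 3.14, 3.9 and 3.04 CPM in cntrl DMSO, 31.5, 29.7 and 33.1 CPM in shCdk8-1 SnxB and 7.39, 5.46 and 6.91 CPM in shCdk8-2 SnxB. It was higher than in controls in both groups, and the difference of shCdk8-2 from shCdk8-1 was log2 -2.25 ± 0.0926 (adjusted p = 3.71e-12). The lysosomal protease Ctsh differed by log2 -1.91 ± 0.142 (adjusted p = 9.66e-09), Apod by -1.82 ± 0.0984 (adjusted p = 9.77e-11) and the kinase Hipk2 by -1.69 ± 0.149 (adjusted p = 9.22e-08), each having risen in both comparisons. Apobec1, a cytidine deaminase, had another pattern. It was 9.49, 8.84 and 9.21 CPM in cntrl DMSO, 11.0, 9.28 and 10.4 CPM in shCdk8-1 SnxB and 3.65, 2.73 and 3.54 CPM in shCdk8-2 SnxB, so that shCdk8-1 overlapped the controls and shCdk8-2 lay below them, a difference of log2 -1.62 ± 0.155 (adjusted p = 2.49e-07). The flippase Atp9a likewise fell with shCdk8-2 (log2 -1.50 ± 0.141 (adjusted p = 1.65e-08)), with a hairpin difference of -1.77 ± 0.137 (adjusted p = 1.55e-08).

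**Figure D4:**
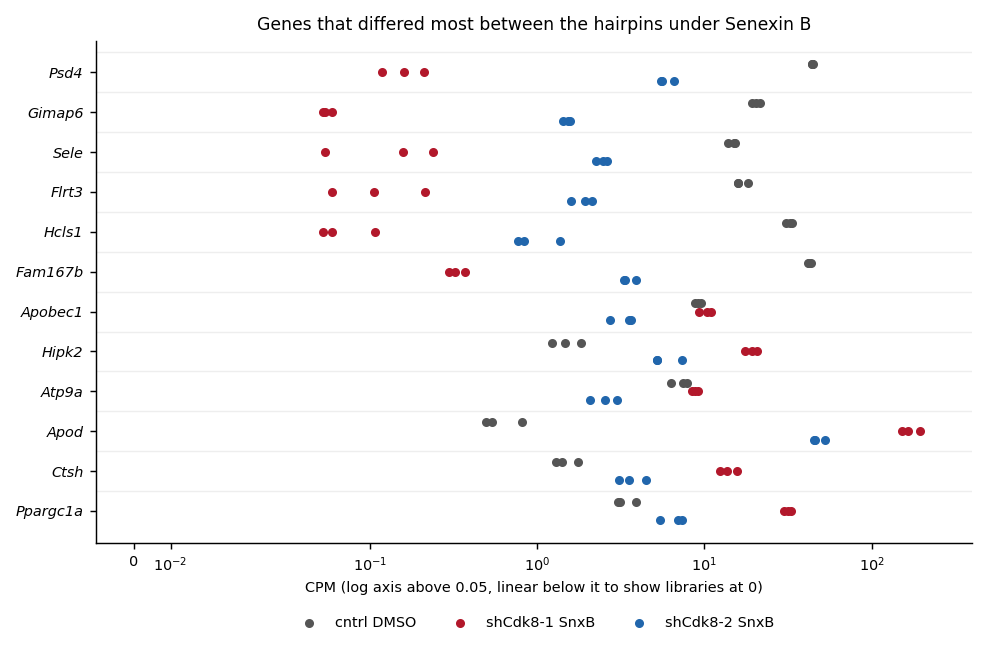
CPM in each library (horizontal axis, log above 0.05) of 12 genes that differed between shCdk8-2 SnxB and shCdk8-1 SnxB, with cntrl DMSO for reference. They had the largest differences per direction among protein-coding genes with a mean of 5 CPM or more over the 9 libraries. Each point is 1 library. In the upper 6 genes shCdk8-2 lies between shCdk8-1 and the controls, and in the lower 6 shCdk8-1 lies above shCdk8-2.

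The step that SnxB adds to a knockdown line was read against the same line in DMSO, and it was small in number. With shCdk8-1, 12 genes (0.094%) were called higher and 2 (0.0157%) lower, and with shCdk8-2, 13 (0.102%) and 3 (0.0235%). Without the fold threshold, 117 (0.916%) were higher and 72 (0.564%) lower with shCdk8-1, against 126 (0.987%) and 136 (1.06%) with shCdk8-2. Contractile genes of smooth muscle, a group that also holds the transcription factor gene Srf, moved in this step. Of the 14 tested members, 7 rose with shCdk8-1 and 9 with shCdk8-2, and none fell (medians 0.22 and 0.22). The group did the same on SnxB in cntrl cells, where 9 rose and none fell (median 0.29), against 435 of all tested genes (3.41%) higher and 273 (2.14%) lower there. Whether the group differed between cntrl and knockdown cells in this was not tested. The group was drawn up with earlier results of these data known, so its counts are no independent test. Against cntrl DMSO the same group was mixed, since 6 rose and 3 fell with shCdk8-1 and 8 rose and 3 fell with shCdk8-2 (medians 0.04 and 0.15).

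Acta2, smooth muscle alpha-actin, was 94.6, 92.4 and 96.8 CPM in shCdk8-1 DMSO and 208, 236 and 232 CPM in shCdk8-1 SnxB, and 207, 216 and 202 CPM in shCdk8-2 DMSO and 425, 424 and 415 CPM in shCdk8-2 SnxB. Within each line the treated libraries were all higher, by log2 1.25 ± 0.047 (adjusted p = 1.42e-12) and 1.01 ± 0.045 (adjusted p = 3.27e-11). Acta2 was among the genes ranked on SnxB, which were required not to overlap, so this separation is not a result. Against cntrl DMSO, at 133, 148 and 145 CPM, the combined change was log2 0.66 ± 0.046 with shCdk8-1 and 1.57 ± 0.0461 with shCdk8-2. The lines differed in their starting level, since shCdk8-1 DMSO lay below cntrl DMSO and shCdk8-2 DMSO above it. Acta2 also rose on SnxB in cntrl cells, to 421, 426 and 409.9 CPM, by log2 1.56 ± 0.0461 (adjusted p = 1.51e-14), so that cntrl SnxB lay above both knockdown lines in DMSO. Actg2, smooth muscle gamma-actin, rose within the lines by log2 2.37 ± 0.352 (adjusted p = 7.25e-04) and 1.78 ± 0.191 (adjusted p = 1.94e-05). Myl9, the regulatory light chain of smooth muscle myosin, was 1.85, 1.84 and 1.32 CPM in cntrl DMSO, 7.42, 8.56 and 8.89 CPM in shCdk8-1 SnxB and 12.4, 11.7 and 12.6 CPM in shCdk8-2 SnxB. It rose by log2 1.33 ± 0.129 (adjusted p = 8.49e-06) and 1.30 ± 0.112 (adjusted p = 2.21e-06) on SnxB, and by log2 2.32 and 2.88 in all. Tmod2, a tropomodulin that caps actin filaments, rose within the lines by log2 1.29 ± 0.135 (adjusted p = 2.24e-05) and 1.35 ± 0.161 (adjusted p = 6.32e-05). Mylk, the kinase of the light chain, did not follow: it fell against cntrl DMSO, with log2 fold changes of -3.19 ± 0.107 with shCdk8-1 and -2.63 ± 0.101 with shCdk8-2, and stood at 0.21 ± 0.14 (adjusted p = 0.518) and 0.20 ± 0.122 (adjusted p = 0.574) on SnxB.

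Tnfsf10 was 1.41, 1.25 and 1.08 CPM in shCdk8-1 DMSO, 2.85, 2.97 and 3.7 CPM in shCdk8-1 SnxB, 0.609, 1.28 and 1.04 CPM in shCdk8-2 DMSO and 2.22, 2.62 and 1.71 CPM in shCdk8-2 SnxB. The step on SnxB was log2 1.34 ± 0.243 (adjusted p = 0.0047) and 1.19 ± 0.27 (adjusted p = 0.0223). With shCdk8-2 it lost the test without replicate 1 or 3 of shCdk8-2 DMSO or replicate 1 or 2 of shCdk8-2 SnxB (adjusted p up to 0.147). The change against cntrl DMSO was log2 3.52 and 2.98. Kcnmb1, a potassium channel subunit of smooth muscle, and Ppp1r16b, a phosphatase regulator, were chosen after their values were seen. Kcnmb1 rose by log2 1.38 and 1.77 on SnxB, and Ppp1r16b by 1.06 and 1.23. With shCdk8-2 the step of Ppp1r16b lost the test without replicate 1 of shCdk8-2 SnxB (adjusted p = 0.0635). Of the genes called lower, also named after their values were seen, Ksr2 fell by log2 1.28 and Stap2 by 1.20 with shCdk8-1, and Crhbp by 1.44, 4930518I15Rik by 2.33 and Gm15013 by 1.99 with shCdk8-2. Each of these 5 lost the test when at least 2 of the 6 libraries were left out in turn (highest adjusted p 0.0864 to 0.253).

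The 250 bases before the start of 3 genes of the contractile group are shown because they hold a CArG box, the motif bound by serum response factor. Capitals mark the match. The motif is its own reverse complement, and the sequences are from RefSeq on GRCm38.p6, 5′ to 3′ on the gene's strand.
Myl9, chr2:156775214-156775463, plus strand: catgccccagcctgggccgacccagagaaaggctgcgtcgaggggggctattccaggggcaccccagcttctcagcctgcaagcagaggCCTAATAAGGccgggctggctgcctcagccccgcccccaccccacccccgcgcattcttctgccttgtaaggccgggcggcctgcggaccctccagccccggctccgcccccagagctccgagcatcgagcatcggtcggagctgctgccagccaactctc
Cnn2, chr10:79988350-79988599, plus strand: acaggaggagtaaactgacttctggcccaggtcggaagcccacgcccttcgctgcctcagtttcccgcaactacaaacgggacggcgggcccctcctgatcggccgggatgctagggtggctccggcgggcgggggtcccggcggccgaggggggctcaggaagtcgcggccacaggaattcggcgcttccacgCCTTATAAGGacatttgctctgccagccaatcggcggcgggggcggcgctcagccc
Srf, chr17:46556163-46556412, minus strand: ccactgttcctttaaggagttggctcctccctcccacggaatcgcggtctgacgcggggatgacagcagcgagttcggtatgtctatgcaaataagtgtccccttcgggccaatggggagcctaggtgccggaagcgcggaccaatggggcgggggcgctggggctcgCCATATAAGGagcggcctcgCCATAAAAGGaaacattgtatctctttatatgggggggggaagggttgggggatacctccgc
These were the group members with a match, 3 of 13 with a promoter entry (23.1%), against 482 of all 32851 promoters (1.47%). The group was drawn up with earlier results of these data known, so this share is no independent test. Acta2 and Actg2 were not among the members with a match. Myl9 rose on SnxB as given above. Cnn2, a calponin, was at log2 0.38 ± 0.0314 (adjusted p = 9.28e-07) and 0.33 ± 0.0314 (adjusted p = 5.30e-06) on SnxB, and Srf, serum response factor itself, at 0.22 ± 0.0437 (adjusted p = 0.00936) and 0.18 ± 0.0437 (adjusted p = 0.034).

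**Figure D5:**
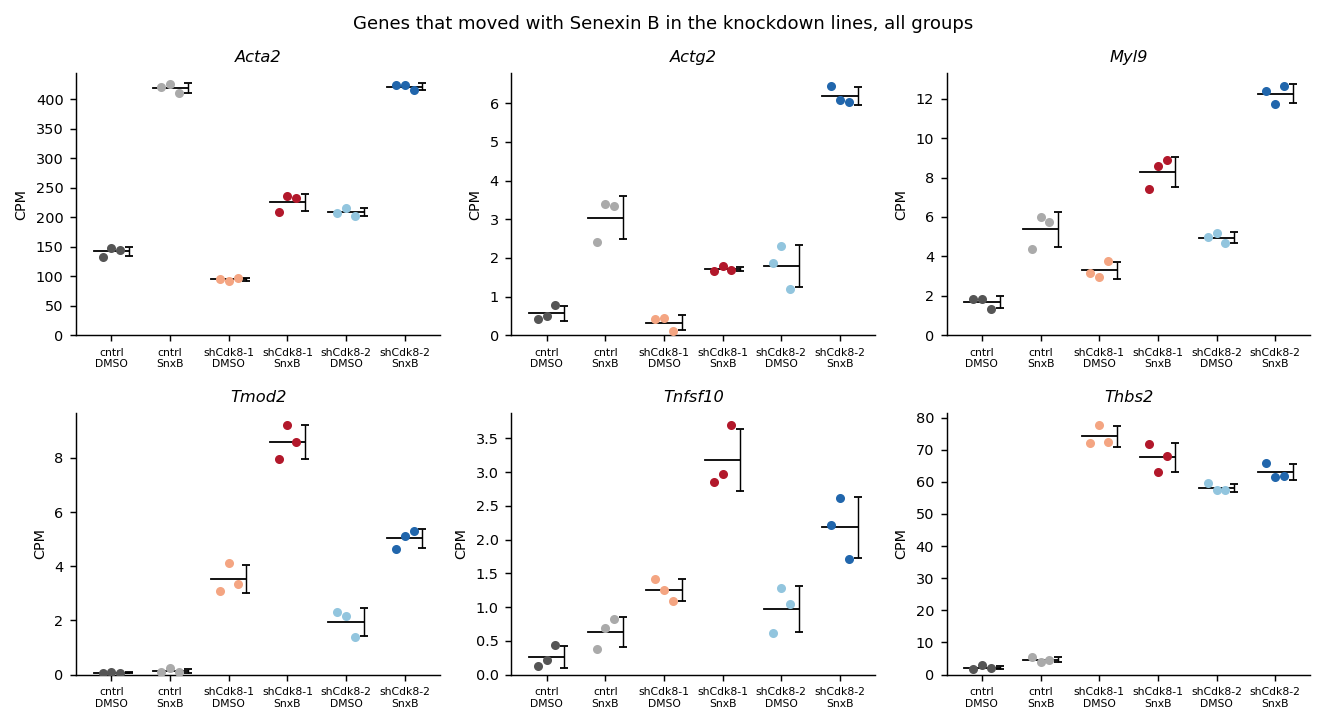
CPM (linear axes from 0) of 6 genes in all 18 libraries; points are libraries, lines group means and bars the SD (n = 3). Acta2, Actg2, Myl9, Tmod2 and Tnfsf10 are higher in SnxB than in DMSO within each knockdown line, whereas Thbs2 rose with knockdown and differs little between DMSO and SnxB there.

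The knockdown within SnxB was read against cntrl SnxB. With shCdk8-1, 734 genes (5.75%) were called higher and 902 (7.06%) lower, and with shCdk8-2, 644 (5.04%) and 735 (5.75%). Cdk8 was lower here, with log2 fold changes of -1.25 ± 0.0745 (adjusted p = 1.24e-11) and -0.48 ± 0.0702 (adjusted p = 7.33e-06). In 1 of the 3 cntrl SnxB libraries Egr1 was at 415 CPM, against 0.383 and 0.82 CPM in the others, so no value for Egr1 against this group is given. Whether the combined change exceeds the sum of its parts was tested as the SnxB step in a knockdown line minus the SnxB step in cntrl cells, on the log2 scale, where 0 means that the steps add. For shCdk8-1, 5 genes (0.0391%) were called, and 39 (0.305%) passed without the fold threshold. For shCdk8-2, 2 genes (0.0157%) were called, and 7 (0.0548%) passed without it.

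Thbs2 was 5.41, 3.94 and 4.51 CPM in cntrl SnxB, 72.1, 77.8 and 72.5 CPM in shCdk8-1 DMSO and 71.7, 63.0 and 68.2 CPM in shCdk8-1 SnxB, from 1.6, 2.82 and 2.16 CPM in cntrl DMSO. It rose on SnxB in cntrl cells (log2 1.05 ± 0.161 (adjusted p = 3.04e-04)) and its step was -0.13 ± 0.0642 (adjusted p = 0.361) in shCdk8-1 cells, a deviation from additivity of -1.18 ± 0.173 (adjusted p = 0.00324). With shCdk8-2 the deviation was -0.93 ± 0.174 (adjusted p = 0.0551). Agt, angiotensinogen, had the same order, with a deviation of -1.19 ± 0.224 (adjusted p = 0.0209) and -1.06 ± 0.226 (adjusted p = 0.114). With shCdk8-1 it lost the test without replicate 2 or 3 of cntrl DMSO or replicate 1 or 3 of cntrl SnxB (adjusted p up to 0.116). Cd244a deviated by -1.69 ± 0.311 (adjusted p = 0.0188) with shCdk8-1 and -1.04 ± 0.316 (adjusted p = 0.463) with shCdk8-2, and the former lost the test without replicate 2 of cntrl DMSO or replicate 1 or 3 of cntrl SnxB (adjusted p up to 0.0623). Atp6v0a4, a proton pump subunit, and Ppp1r16b were named after their values were seen and were called for both hairpins. The deviation of Atp6v0a4 was -1.54 ± 0.223 (adjusted p = 0.00304) and -1.46 ± 0.235 (adjusted p = 0.0232). For Ppp1r16b it was 1.55 ± 0.254 (adjusted p = 0.00869) and 1.71 ± 0.291 (adjusted p = 0.0304): the step on SnxB was log2 -0.49 ± 0.176 (adjusted p = 0.128) in cntrl cells, whereas the gene rose within both knockdown lines. With shCdk8-2, Atp6v0a4 and Ppp1r16b each lost the test when any of 9 of the 12 libraries was left out (adjusted p up to 0.0986 and 0.13). Acta2 deviated by less than 2-fold, -0.31 ± 0.065 (adjusted p = 0.0445) and -0.55 ± 0.0636 (adjusted p = 6.75e-04), and with shCdk8-1 this lost the test when any of 11 of the 12 libraries was left out (adjusted p up to 0.15) and on library totals. For Cdk8, H2-K1, H2-D1 and Loxl2 the test of additivity did not pass with either hairpin (adjusted p of at least 0.495).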

How the data were processed

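RNA was measured by sequencing in E0771 cells carrying a Renilla or Cdk8 hairpin and kept in DMSO or Senexin B, 3 libraries per group. Per the labels and the study's methods, the authors trimmed 50 bp single-end reads with Trimmomatic, aligned them with STAR to GRCm38 with GENCODE M13, and deposited raw read counts per gene made with featureCounts 1.5.1 on the reverse strand. Counting by strand keeps antisense partners apart. The command in the file headers sets no option to count reads that map to several places or several genes, which featureCounts leaves out by default, so families of similar copies may be undercounted. The counts were used as deposited. Of 50686 genes, 224 had no symbol.

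The 18 libraries were fitted together with 1 mean per group (edgeR 4.0.16 in R 4.3.3, filterByExpr at its minimum count of 10 and minimum total count of 15, TMM scaling, glmQLFit and glmQLFTest). The standard error is the absolute log2 fold change divided by the square root of F, and p-values were adjusted over 12772 genes by the Benjamini-Hochberg method. CPM use TMM-scaled library sizes. Where every library of a group was at 0, folds are bounds from a floor of 3 counts per library. Ratios of pooled low counts carry exact binomial 95% intervals. Named genes were those the study names and members of the gene groups that passed the call. The 10 largest changes per direction shared by both hairpins and the 6 largest per direction between hairpins were added. So were the 6 largest per line on SnxB and the 4 largest departures from additivity per line. These rankings took protein-coding genes with a mean CPM of 5 or more and, except for additivity, groups not overlapping. For the ranking between hairpins the mean included cntrl DMSO. The libraries, gene groups and naming rule were chosen with earlier results of these data known. Promoters of 250 bases are from RefSeq on GRCm38.p6. The steps were tested on simulated data. Alternatives were glmTreat, DESeq2 1.42.0, other scaling and filters, a fit to the compared groups, a replicate block and leaving out each library. Counts in tables were handled with pandas 2.3.3 and drawn with matplotlib 3.10.9. No column of per-sample values was left out. Some genes are not reported here.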

Additional observations from a re-analysis of the deposited data

Results flagged for a closer look

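The SnxB step, on the log2 scale, differed between a knockdown line and cntrl cells in 5 genes for shCdk8-1 and 2 genes for shCdk8-2, by the test of the difference itself (edgeR quasi-likelihood test, adjusted p under 0.05 and a difference above 2-fold). For shCdk8-1 the differences, knockdown line minus cntrl, were -1.69 for Cd244a, -1.54 for Atp6v0a4, -1.19 for Agt, -1.18 for Thbs2 and 1.55 for Ppp1r16b. For shCdk8-2 they were -1.46 for Atp6v0a4 and 1.71 for Ppp1r16b. Acta2 passed the test below 2-fold, at -0.31 for shCdk8-1 and -0.55 for shCdk8-2. Those of Agt, Cd244a and Acta2 with shCdk8-1 and of Atp6v0a4 and Ppp1r16b with shCdk8-2 lost the test without single libraries, as given with their values.

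The 2 knockdown lines in SnxB differed from each other in 268 genes. Those listed are protein-coding, with a mean of 5 CPM or more over the 9 libraries, cntrl DMSO included, and no overlap between the lines. Among these, the largest log2 differences, shCdk8-2 minus shCdk8-1, were 5.10 for Psd4, 4.62 for Gimap6, 3.99 for Sele, 3.81 for Flrt3, 3.63 for Hcls1 and 3.39 for Fam167b. In the other direction they were -2.25 for Ppargc1a, -1.91 for Ctsh, -1.82 for Apod, -1.77 for Atp9a, -1.69 for Hipk2 and -1.62 for Apobec1. The fitted values of Gimap6 and Hcls1 depend on the prior count, since no shCdk8-1 SnxB library held more than 3 counts of either.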

How the results depend on the processing

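No gene value that was recomputed changed direction. Of 4732 values recomputed over genes, comparisons and settings, 4564 stayed on their side of the threshold, 161 lost the test and 7 gained it. These cover the genes of the naming rule and those singled out in the smaller comparisons, without glmTreat. Group members given in the text that did not pass the call were mostly not recomputed, nor were changes on SnxB in cntrl cells. For the counts of genes called, RLE size factors, library totals and a filter of more than 1 CPM in 3 libraries stayed within 1.5 times of those reported. DESeq2 called 1643 and 1423 genes against cntrl DMSO for shCdk8-1 and shCdk8-2, 234 between hairpins, 10 and 11 on SnxB, and 5 and 3 for non-additivity. Testing against a 2-fold change (glmTreat in edgeR) called 1110 and 885 genes against cntrl DMSO, 75 between hairpins, 1059 and 834 against cntrl SnxB, 1 and 0 on SnxB, and 0 and 0 for non-additivity. In these last 3 comparisons with no call, 21, 35 and 15 genes had an unadjusted p under 0.05. With adjusted p alone the corresponding numbers were 7764 and 7460, 2674, 7739 and 7236, 189 and 262, and 39 and 7. Without a filter, 24 and 28 genes were called on SnxB and 15 and 9 for non-additivity, and 46.4% of the 28 were higher, against 81.2% of the 16 reported. A fit to the compared groups alone called 7 genes on SnxB for shCdk8-1 and 3 and 1 for non-additivity.

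Leaving out each library in turn gave 1694 to 1739 and 1459 to 1499 genes against cntrl DMSO, 242 to 263 between hairpins, 1648 to 1696 and 1382 to 1406 against cntrl SnxB, 8 to 16 and 9 to 19 on SnxB, and 3 to 5 and 0 to 4 for non-additivity. The count on SnxB was 8 without shCdk8-1 DMSO replicate 1, 9 without shCdk8-2 DMSO replicate 3 and 10 without shCdk8-2 SnxB replicate 2. For non-additivity with shCdk8-1 it was 3 without cntrl DMSO replicate 2 or cntrl SnxB replicate 1 or 3. With shCdk8-2 it was 4 without cntrl SnxB replicate 2, 1 without cntrl DMSO replicate 2 or 3 or shCdk8-2 DMSO replicate 3, and 0 without any of cntrl DMSO replicate 1, shCdk8-2 DMSO replicates 1 and 2, cntrl SnxB replicates 1 and 3, and shCdk8-2 SnxB replicates 1 and 3, where 533 to 760 genes had an unadjusted p under 0.05 in edgeR. The main fit paired no libraries. Deviations of same-numbered libraries from their group means correlated at 0.126, -0.0156 and 0.0395 between shCdk8-1 SnxB and cntrl DMSO. For shCdk8-2 SnxB and cntrl DMSO the correlations were -0.121, 0.0286 and -0.144. Against the same line in DMSO they were 0.0846, 0.0498 and 0.0657 for shCdk8-1 SnxB and -0.0136, -0.00925 and 0.0371 for shCdk8-2 SnxB. Between shCdk8-2 SnxB and cntrl SnxB they were 0.227, 0.0543 and 0.121, not all over 0.1. In shCdk8-2 the file headers and labels disagree on replicate numbers, so its values of the pairing and the block rest on the labels alone. A replicate block called 1678 and 1448 genes against cntrl DMSO, 267 between hairpins, 1635 and 1376 against cntrl SnxB, 13 and 14 on SnxB, and 5 and 2 for non-additivity. The cause of these shifts was not tested. With 3 libraries per group, genes near the floor of 0.147 to 0.185 CPM are the least certain.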
